A study of Homo sapiens with 11 samples.

Results

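IMR32 cells that carried a control lentivirus were compared with the same cells before any virus was added. The comparison used 5 of the 11 arrays in the series, chosen by their labels. IMR32 is a human neuroblastoma line with amplified MYCN, and all groups were grown in DMEM with 10% fetal calf serum. The control virus coded for the short hairpin SHC002 (Sigma), and its 3 arrays were taken at 24, 48 and 72 h, 1 array an hour. The cells without virus gave 2 arrays at 0 h. The other 6 arrays were labelled shMYCN, with a lentivirus coding for a hairpin against MYCN, 2 arrays at each of 24, 48 and 72 h. Virus dose, selection and the share of transduced cells are not described in the labels. Nor do the labels say whether repeat arrays are of separate cultures, so the p-values reflect array-to-array spread that may be technical. No untransduced cells were arrayed at 24 to 72 h, so virus, hairpin and time in culture cannot be told apart in any comparison with 0 h.

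A lentivirus enters the cell as RNA, is copied into DNA and is inserted into the genome, from which the hairpin is then transcribed. The hairpin is cut by Dicer, and a strand of the product is loaded onto an Argonaute protein, which silences RNAs that pair with it. SHC002 is sold as a hairpin that matches no human gene. Viral nucleic acid and double-stranded RNA can be sensed by RIGI and other receptors, which turn on interferon and its target genes. A control virus is used to separate such effects of the vector from those of the silenced gene.

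Of the 9 marker genes listed for noradrenergic neuroblastoma cells, 8 had a probe set with a single gene symbol, and 7 of these were bright enough to be tested. The summed signal of the 8 was 11290 to 12020 without virus and 11330 to 12670 with control virus. MYCN and GATA3 carry most of this sum, so it hides changes of single members. HAND2 gave 111.1 and 111.0 without virus and 91.2, 100.1 and 67.7 with control virus at 24, 48 and 72 h. PHOX2A gave 1217.8 and 1290.9, then 1389.6, 1316.8 and 969.8, while MYCN, given below, was above both arrays without virus at every hour. GATA3 gave 3317.8 and 3163.5, then 3498.5, 3406.9 and 3174.3. For DBH the signals were 199.0 and 157.8, then 171.4, 216.8 and 205.0. ISL1 gave 822.1 and 796.7, then 823.4, 716.7 and 749.7. For CHGA they were 1302.9 and 1252.2, then 1365.6, 1155.0 and 1102.1. TH, which makes the catecholamine precursor DOPA, had signals of 0.6 to 6.6 on the 5 arrays, below the brightness needed for testing. The Schwann cell markers SOX10 and S100B stayed at or below 7.6, and the leukocyte markers PTPRC, CD14 and CD3E at or below 4.1, 7.3 and 16.1. The endothelial marker PECAM1 gave 19.4 to 25.0 and the epithelial marker PAX8 60.1 to 72.5 on the 5 arrays, both bright enough to be tested. The other endothelial and epithelial markers stayed at or below 10.0. Summed fibroblast markers were 414.3 to 415.7 without virus and 390.6 to 447.0 with control virus. Nearly all of this sum was COL1A1 and THY1, while COL3A1 and LUM stayed at or below 6.3 and 6.4. COL1A1 gave 317.0 and 308.5 without virus and 292.2, 327.9 and 354.1 with control virus at 24, 48 and 72 h. THY1 gave 83.9 to 95.7 on the 5 arrays. GAPDH 3' to 5' ratios, a measure of RNA integrity, were 0.9974 to 1.068 on the 5 arrays. Probe sets for added poly-A control RNAs had a geometric mean, after adding 1, of 104.8 on the 48 h array labelled shMYCN A. On the other arrays it was 38.84 to 58.59. That array enters the error estimate shared by the tests below. MYCN itself, by its brightest probe set, gave 5040.1 and 4507.4 without virus and 5332.1, 5389.7 and 5055.3 with control virus at 24, 48 and 72 h. The 6 arrays labelled shMYCN gave 4567.4 to 5623.7 on the same probe set, so this signal does not bear out their label. A dimmer MYCN probe set gave 370.8 and 354.8 without virus and 406.4, 520.1 and 370.4 with control virus. In the arrays labelled shMYCN it gave 254.2 and 292.3 at 24 h, below the others, but 650.7 and 795.6 at 72 h, above them. At 48 h its values there were 319.4 and 624.2. Another dimmer probe set gave 227.6 and 223.7 without virus and 216.2, 290.2 and 224.9 with control virus. In the arrays labelled shMYCN this one gave 130.2 and 162.4 at 24 h, 183.4 and 354.4 at 48 h, and 338.8 and 404.0 at 72 h. Directions drawn from these arrays below rest on their label.

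The control virus arrays lay almost as close to the arrays without virus as those arrays lay to each other, and the distance was larger at the later hours. Distance here is the SD, over 11865 genes, of the difference between 2 arrays in log2(signal + 16). The 2 arrays without virus were 0.172 apart. The control virus array stood 0.181 and 0.182 from them at 24 h, 0.201 and 0.213 at 48 h, and 0.210 and 0.223 at 72 h. The arrays labelled shMYCN stood 0.225 to 0.239 away at 24 h and 0.537 to 0.542 at 72 h. The 24 h and 72 h control virus arrays were 0.2296 apart, farther than either was from the cells without virus.

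**Figure D1:**
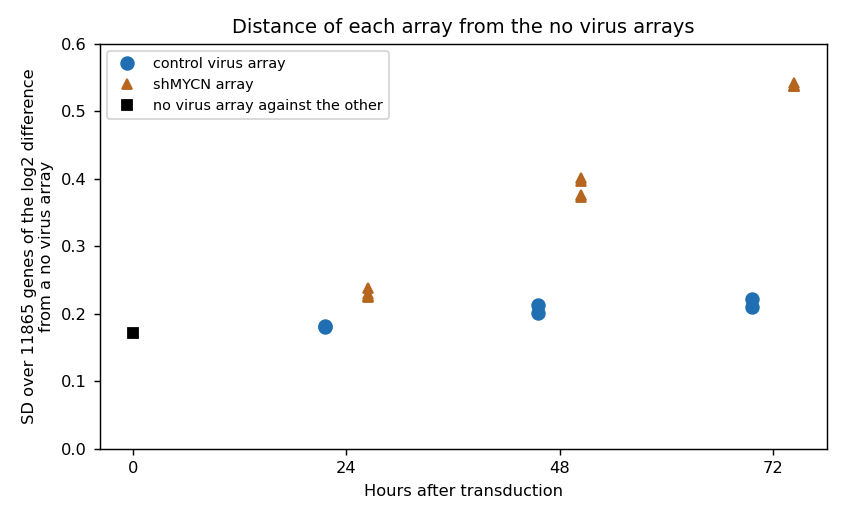
Each point is the SD over 11865 genes of the log2 difference between an array (control virus, circles; labelled shMYCN, triangles, drawn to either side of their hour) and an array without virus; the square is the distance of 0.172 between the 2 arrays without virus. Control virus points stay at or below 0.223, while those labelled shMYCN reach 0.542 at 72 h.

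Averaged over the 3 hours, 4 genes differed from the cells without virus. STC1, which codes for the secreted hormone stanniocalcin, SUSD2, which codes for a sushi domain membrane protein, and CHRNA1, the alpha subunit of the muscle-type nicotinic receptor, were higher (3 genes, 0.0253% of those tested). MARCHF11, a membrane-bound ubiquitin ligase, was lower (1 gene, 0.00843%). These are 4 of 11865 genes tested, or 0.0337%, at an adjusted p under 0.05 (limma, Benjamini-Hochberg over all genes, two-sided). The split was 3 higher and 4 lower under quantile normalization and 3 higher and 5 lower under median scaling. At an unadjusted p under 0.05, 631 genes passed, 346 higher (2.92%) and 285 lower (2.4%). With 1 array an hour, the error was estimated from the 4 groups that had 2 arrays, and a lone array was assumed to vary like them. The count moved with arrays outside the comparison: it was 36 without either 48 h array labelled shMYCN, the pair least alike, and 0 without either array of any other pair. It was 16 without the 24 h control virus array, 0 without that of 48 h or of 72 h, and 0 in a fit of the 5 arrays alone.

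SUSD2 had signals of 102.6 and 108.0 without virus, and of 110.0, 230.8 and 362.4 with control virus at 24, 48 and 72 h. Its mean log2 difference was 0.91 ± 0.11 (SE; 3 arrays against 2, adjusted p = 0.0166 by limma), or 1.88-fold. All 3 control virus arrays lay above both others, but that of 24 h by little. CHRNA1 gave 101.8 and 96.8, then 126.5, 169.3 and 317.3, a mean log2 difference of 0.84 ± 0.10 (SE; adjusted p = 0.0166 by limma), with no overlap of the groups. STC1 gave 389.8 and 363.2, then 385.1, 637.5 and 901.5. Its log2 difference was 0.66 ± 0.08 (SE; adjusted p = 0.0166 by limma), and the 24 h array lay between the arrays without virus. MARCHF11 gave 626.9 and 666.6, then 696.1, 412.2 and 271.6. The 24 h array was the highest of the 5 and those of 48 and 72 h the lowest, for a log2 difference of -0.58 ± 0.08 (SE; adjusted p = 0.04125 by limma). In all 4 genes the difference from the cells without virus was larger at 48 and 72 h than at 24 h. Fold changes are on the log2(signal + 16) scale, which understates the change of dim genes.

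For most genes the arrays limited any mean difference to a small range on the log2 scale used, where a constant is added to each signal. The 95% interval of the mean difference lay wholly within 2-fold of no difference for 11826 of 11865 genes (99.7%), and within 1.5-fold for 11093 (93.5%). For a single hour the share within 2-fold was 98.5% at 24 h, 98.2% at 48 h and 97.9% at 72 h. The added constant shrinks the differences of dim genes, so these shares do not bound the change in their signal itself. HBB, beta-globin, had a mean signal of 8.85 without virus and 25.0 with control virus. The interval of its mean difference was 0.4366 to 0.9935 in log2, so it counted as within 2-fold. The 3 control virus arrays lay above both arrays without virus for 1336 genes (11.3%) and below both for 1257 (10.6%).

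Several genes with no overlap between the groups missed the threshold. GPC2, which codes for the neuroblastoma surface proteoglycan glypican-2, gave 49.7 and 45.0 without virus and 82.8, 82.6 and 85.3 with control virus (adjusted p = 0.231, limma). The 3 control virus values were nearly equal, unlike those of SUSD2 or STC1. The arrays labelled shMYCN gave 53.5 and 56.4 at 24 h and 51.6 and 62.7 at 72 h, between the 2 sets. ARNT, the partner of the hypoxia-inducible factors, gave 190.0 and 197.0, then 105.1, 116.9 and 137.2 (adjusted p = 0.09722). B4GALT6, a lactosylceramide synthase of ganglioside synthesis, gave 118.6 and 102.1, then 85.0, 43.5 and 50.9 (adjusted p = 0.08717). MANEA, a Golgi mannosidase, gave 167.8 and 152.7, then 118.0, 87.9 and 90.1 (adjusted p = 0.09627).

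No gene passed at 24 h or at 48 h against the cells without virus (0 of 11865 at either hour, limma adjusted p under 0.05). At an unadjusted p under 0.05, 333 genes passed at 24 h, 136 higher (1.15%) and 197 lower (1.66%), and 681 at 48 h, 353 higher (2.98%) and 328 lower (2.76%). The count at 48 h was 10 without the 48 h array labelled shMYCN A and 12 without B. The smallest adjusted p was 0.732 at 24 h and 0.0772 at 48 h. At 48 h that value belonged to SUSD2, STC1 and GRK6, a kinase of G protein-coupled receptors. GRK6 gave 143.7 and 191.3 without virus and 188.1, 59.6 and 154.0 with control virus. Its low value was on the 48 h array only, and the log2 difference there was -1.27. A median 95% half-width of 0.322 in log2 applies to each single hour.

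At 72 h, 19 genes differed from the cells without virus (0.16% of those tested; limma adjusted p under 0.05), 10 higher (0.0843%) and 9 lower (0.0759%). Of these, 4 were higher by at least 2-fold (0.0337%) and 2 lower by as much (0.0169%). With arrays scaled to a common median the split was 13 higher and 29 lower. All 19 moved in 1 direction from 24 to 48 to 72 h. The sign at 48 h was that of 72 h in all 19, and the sign at 24 h in 11. Over all genes tested, signals were ordered upward through the 3 hours for 19.2% and downward for 19.5%. The 19 genes were picked by an extreme 72 h value, which itself favours such an order, so these shares are not a matched background. Leaving out arrays gave 6 genes (without the first array without virus) to 143 (without either 48 h array labelled shMYCN), and 8 without the second array without virus or without either 24 h array labelled shMYCN.

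The 10 higher genes were SUSD2, CHRNA1, STC1, HSPA12A, PLXNA2, PHLDA1, INSM1, PPP1R17, LRATD2 and GLDC. SUSD2 was 3.12-fold higher at 72 h, CHRNA1 2.89-fold and STC1 2.34-fold, all at an adjusted p of 0.000555 (limma). HSPA12A, a distant member of the HSP70 chaperone family, gave 302.1 and 286.4 without virus and 290.7, 413.3 and 615.5 with control virus. Its log2 difference at 72 h was 1.03 ± 0.11 (SE; adjusted p = 0.003068, limma), with 24 h level with the cells without virus. PHLDA1, which is induced by growth factor signalling, gave 254.3 and 261.5, then 237.6, 338.7 and 512.7. INSM1, a zinc finger factor of neuroendocrine cells, gave 546.0 and 549.0, then 536.5, 792.6 and 1052.7. Both were lowest at 24 h and highest at 72 h. GLDC, the glycine decarboxylase of the glycine cleavage system, gave 214.3 and 198.6, then 197.4, 267.9 and 373.1. PLXNA2, a semaphorin receptor, gave 90.9 and 79.6, then 94.3, 131.0 and 186.0. For PPP1R17 and LRATD2 the log2 differences at 72 h were 0.92 and 0.83.

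The 9 lower genes were DKK1, MARCHF11, TULP3, ARPC3, RABL6, SCN3B, COX7C, CDK6 and CARHSP1. DKK1, a secreted inhibitor of Wnt signalling, gave 189.1 and 222.8 without virus and 221.1, 151.9 and 75.2 with control virus. It was 2.43-fold lower at 72 h (log2 -1.28 ± 0.14 SE, adjusted p = 0.003068, limma), while its 24 h value lay between the arrays without virus. TULP3, which takes receptors into cilia, gave 233.8 and 227.9, then 195.0, 169.0 and 109.3. ARPC3, a subunit of the actin-branching complex, gave 1481.8 and 1425.4, then 1272.9, 1153.8 and 730.5. Both lay below the cells without virus at every hour. CDK6, a G1 cyclin-dependent kinase, gave 1730.6 and 1537.3, then 1539.8, 1244.8 and 963.2. COX7C, a subunit of cytochrome c oxidase, gave 2964.3 and 2833.7, then 2816.9, 2106.2 and 1618.2. Bulk arrays cannot tell fewer cells that hold an RNA from less of it per cell.

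Where these genes had further probe sets of sufficient brightness, most gave the same sign. For the genes called at 72 h, 13 of 19 had such probe sets, 26 in all. Of these 24 shared the sign of the brightest probe set, and 16 did so at an unadjusted p under 0.05. The exceptions were a probe set each of CARHSP1 and LRATD2. A CARHSP1 probe set of the same sign, with a mean signal of 300.6, gave a log2 difference of only -0.12 at 72 h, against -0.67 for the brightest. Under the mean of all probe sets CARHSP1 turned to a log2 of 0.115, as given in the closing section.

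**Figure D2:**
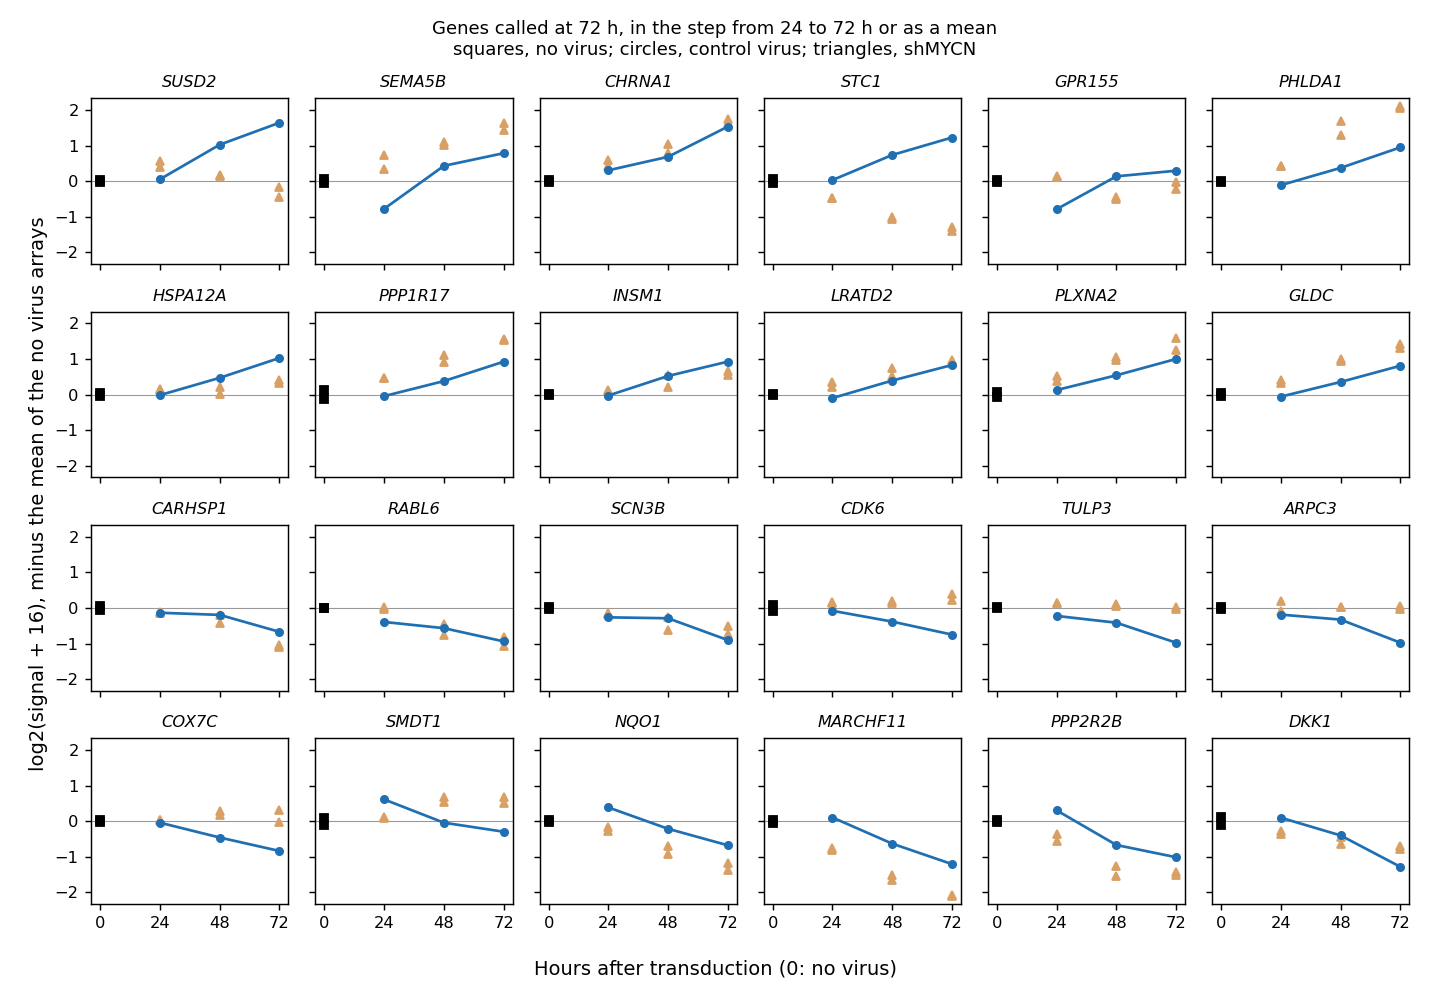
Each panel shows the log2(signal + 16) of a gene, minus the mean of the 2 arrays without virus, against hours, for the 24 genes called at 72 h, in the step from 24 to 72 h or as a mean of the 3 hours (squares, no virus; circles joined by a line, control virus, 1 array an hour; triangles, arrays labelled shMYCN). All 24 genes are ordered 1 way through the control virus hours, an order that their selection favours. STC1 and SUSD2 lie on opposite sides of 0 in the 2 virus series at 72 h.

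The change through the control virus series was also tested without the cells at 0 h. Between 24 and 72 h 15 genes changed (0.126% of those tested; limma adjusted p under 0.05), 10 higher (0.0843%) and 5 lower (0.0421%), or 8 and 8 under quantile normalization and 10 and 8 under median scaling, and the 48 h value lay between the other two in all 15. No gene passed from 24 to 48 h or from 48 to 72 h, where 521 genes (2.51% higher, 1.88% lower) and 530 genes (2.57% higher, 1.9% lower) had an unadjusted p under 0.05. Picking genes by a wide gap between 24 and 72 h favours a 48 h value between them, so that order is no separate result. Of the 19 genes of 72 h, 10 were also among the 15 of the step from 24 to 72 h, but both tests use the 72 h array. The count was 3 without either 72 h array labelled shMYCN, 6 without either of 24 h, 7 and 8 without the first and the second array without virus, and 87 without either of 48 h.

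Among the 10 genes that rose were SUSD2, CHRNA1, STC1, PHLDA1, HSPA12A, INSM1, LRATD2 and GLDC, given above. The others were SEMA5B and GPR155. SEMA5B, a membrane semaphorin of axon guidance, gave 28.6 and 31.9 without virus and 11, 46.3 and 63.7 with control virus, a step of 1.56 ± 0.22 in log2 (SE; adjusted p = 0.02477, limma). GPR155, a cholesterol-sensing lysosomal protein, gave 89.6 and 86.7, then 44.4, 98.5 and 111.7. In both genes the 24 h array lay below the cells without virus and the later arrays above, so the step includes a low 24 h value. The 5 genes that fell were DKK1, MARCHF11, PPP2R2B, NQO1 and SMDT1. PPP2R2B, a regulatory subunit of protein phosphatase 2A, gave 105.0 and 108.9, then 135.8, 61.4 and 45.0. NQO1, a quinone reductase of the oxidative stress response, gave 203.5 and 194.1, then 264.9, 169.3 and 118.5. SMDT1, a subunit of the mitochondrial calcium uniporter, gave 570.0 and 650.1, then 938.9, 591.1 and 493.6. All 3 were highest on the 24 h array. A nearly equally bright SMDT1 probe set gave 595.1 and 617.8, then 667.6, 634.1 and 563.2, a step of -0.24 in log2 (unadjusted p = 0.0966, limma), smaller than the -0.91 of the first. Of 17 further probe sets of sufficient brightness for 9 of the 15 genes, 15 shared the sign of the step, 9 of them at an unadjusted p under 0.05. The exceptions were a dim probe set each of SMDT1 and LRATD2.

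The arrays labelled shMYCN passed through the same hours and share no array with this step. There, 4321 genes changed between 24 and 72 h (36.4% of those tested; limma adjusted p under 0.05), 18.1% higher and 18.3% lower. With arrays scaled to a common median, which moved the median of all genes in this step to -0.10, 1390 were higher and 3057 lower. Of the 10 genes that rose with control virus, 6 also rose there, 2 fell and 2 were not called. Of the 5 that fell with control virus, 4 also fell there and SMDT1 rose. MARCHF11 fell by 1.31 ± 0.12 in log2 with control virus and by 1.31 ± 0.09 in the arrays labelled shMYCN (SE). NQO1 fell by 1.06 ± 0.17 and by 1.05 ± 0.12 (SE), and CHRNA1 rose by 1.23 ± 0.16 and by 1.18 ± 0.11 (SE). For these 3 genes the 2 steps differed by less than their errors on the brightest probe set. Dimmer NQO1 probe sets did not share this. One, with a mean signal of 93.05, had steps of -0.40 with control virus and -1.175 in the arrays labelled shMYCN. On another, with a mean signal of 29.95, they were -0.12 and -0.77. Over all 11865 genes the 2 steps had a Pearson correlation of 0.175, a description across genes, which are not independent.

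STC1 and SUSD2 went opposite ways. STC1 rose by 1.19 ± 0.12 in log2 with control virus, while in the arrays labelled shMYCN it fell by 0.87 ± 0.09 (SE). Its signals there were 268.5 and 266.0 at 24 h and 143.6 and 133.7 at 72 h. The difference between the steps was 2.07 ± 0.15 (SE; adjusted p = 9.091e-05, limma). SUSD2 rose by 1.59 ± 0.17 with control virus, while in the arrays labelled shMYCN it fell by 0.79 ± 0.12, from 144.0 and 163.7 at 24 h to 73.8 and 91.7 at 72 h. The difference was 2.37 ± 0.20 (SE; adjusted p = 0.0001594, limma). Over all genes 1227 had steps that differed (10.3%; limma adjusted p under 0.05), 5.82% higher and 4.52% lower with control virus. Median scaling gave 822 higher and 381 lower. Among the 1227 were 6 of the 15 genes called with control virus. Besides STC1 and SUSD2 these were GPR155, HSPA12A, DKK1 and SMDT1.

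**Figure D3:**
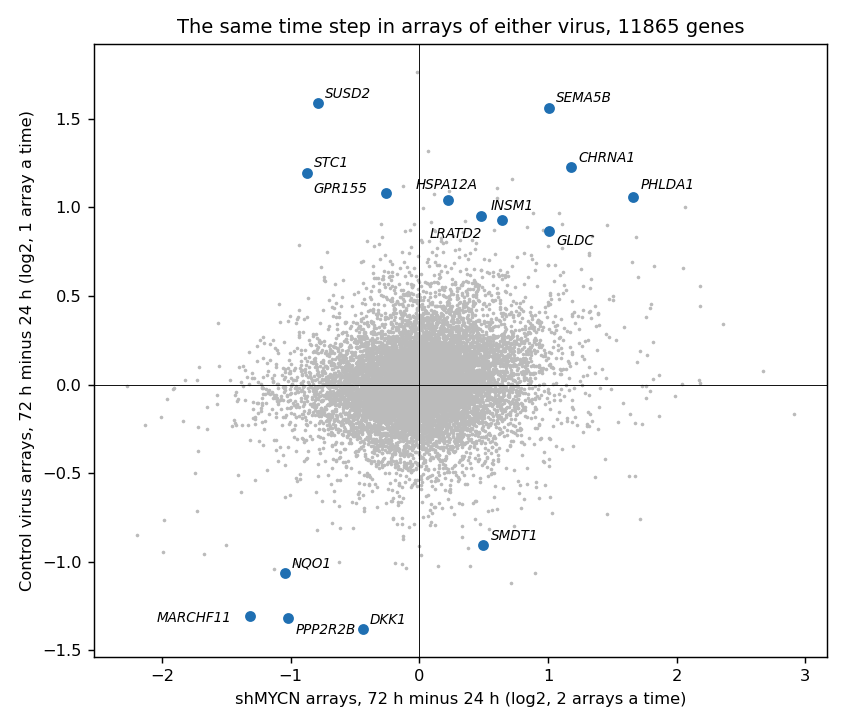
Each point is a gene, with its log2 change from 24 to 72 h in the arrays labelled shMYCN on the x axis (2 arrays a time) and in the control virus arrays on the y axis (1 array a time); the 15 genes called with control virus are named. STC1 and SUSD2 sit at the upper left (higher with control virus, lower in arrays labelled shMYCN) and MARCHF11, NQO1, PPP2R2B and DKK1 at the lower left.

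Interferon and antiviral genes gave no call. Of 44 genes listed 22 were bright enough to be tested, none passed as a mean, at any hour or in the step from 24 to 72 h, and the median mean difference was 0.02 in log2, beside 0.00 over all genes. The share of all genes called was at most 0.16% in these comparisons, so no call is near the background for 22 genes. The median step from 24 to 72 h was 0.18, and 16 of 22 steps were above 0, beside 5890 of 11865 over all genes. At an unadjusted p under 0.05, 4 were higher as a mean (background 2.92%) and 0 lower (background 2.4%). Signals were above both arrays without virus for 3 of 22 (background 11.3%) and below both for 0 (background 10.6%). A further 20 listed genes were too dim to be tested, with signals of 0.4 to 20 on the 5 arrays and a median of 4.9, where changes in level cannot be measured well.

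IFI44, an interferon-induced gene, gave 354.4 and 351.8 without virus and 320.9, 451.4 and 519.0 with control virus. Its step from 24 to 72 h was 0.67 in log2 (adjusted p = 0.05354, limma), just outside the threshold. USP18, which removes ISG15 from proteins, gave 141.5 and 147.4, then 161.7, 182.5 and 233.6 (mean log2 0.36, adjusted p = 0.8455). IFITM2 and IFITM3, which block viral entry, had means of 0.83 and 0.49 in log2, and the 2 arrays without virus themselves stood at 33.4 and 10.8 for IFITM2 and at 29.4 and 56.6 for IFITM3. ISG15, a ubiquitin-like modifier, gave 36.2 and 23.2, then 26.2, 37.3 and 26.2. RIGI, the RNA sensor, gave 27.5 and 25.8, then 20.9, 24.2 and 26.5. EIF2AK2, the kinase PKR that senses double-stranded RNA, gave 379.9 and 407.9, then 379.3, 369.9 and 430.5. For EIF2AK2 the 95% interval of the mean log2 difference was -0.18 to 0.17, and for IFIT5, an RNA-binding effector, -0.16 to 0.19. The signals of ISG15, RIGI and EIF2AK2 with virus overlapped those without, while those of IFI44 and USP18 were highest at 72 h.

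The genes of the small RNA pathway were tested as well, since a hairpin passes through it. Of 16 listed 15 were tested and none passed as a mean, at an hour or in a step, with a median mean difference of -0.02 in log2. The share of all genes called was at most 0.16% in these comparisons, so 0 calls is near the background for 15 genes. DICER1, which cuts the hairpin, gave 601.6 and 588.1 without virus and 454.3, 493.9 and 463.2 with control virus. All 3 control virus arrays lay below both others, for a log2 difference of -0.33 ± 0.12 (SE; adjusted p = 0.8455, limma). TNRC6A, an Argonaute partner, gave 531.9 and 575.9, then 519.4, 453.6 and 495.4 (adjusted p = 0.8876). AGO2, the Argonaute that slices its target, gave 383.9 and 343.0, then 386.5, 433.4 and 405.6 (adjusted p = 0.9848). XPO5, which exports hairpins from the nucleus, gave 824.8 and 753.7, then 790.8, 763.1 and 771.7, within the range of the cells without virus. Below both arrays without virus stood 3 of 15 members (background 10.6%) and above both 1 (background 11.3%).

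None of the 10 tested genes of the MYC network passed either, which for 10 genes is near the background of at most 0.16%. The mean difference of MYCN was 0.14 in log2, with a 95% interval of -0.09 to 0.37. Its dimerization partner MAX gave 767.7 and 768.9, then 770.8, 747.0 and 706.9. MXI1, an antagonist of MYC, gave 597.2 and 545.4, then 582.3, 619.4 and 756.3, highest at 72 h (adjusted p = 0.2821 there, limma).

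Genes of cholesterol synthesis and uptake lay higher in the control virus arrays as a list, though no member passed on its own. This pathway builds cholesterol from acetyl-CoA through mevalonate, squalene and lanosterol, and is switched on by SREBP factors when sterols are low. Of 34 genes listed, which include a few of fatty acid synthesis, 26 were tested. Their median mean difference was 0.20 in log2, beside 0.00 over all genes, and was 0.15 at 24 h, 0.19 at 48 h and 0.22 at 72 h. All 3 control virus arrays lay above both arrays without virus for 17 of the 26 (background 11.3%), and for 0 below both (background 10.6%). At an unadjusted p under 0.05, 12 were higher (background 2.92%) and 0 lower (background 2.4%). These genes share their regulation and the same arrays, so they are not independent, and the list is described here without a test of its own.

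Along the pathway, HMGCS1, which makes the HMG-CoA that feeds mevalonate, gave 578.6 and 550.4 without virus and 737.1, 672.5 and 682.1 with control virus (log2 0.30 ± 0.09 SE, adjusted p = 0.6142, limma). MVK, mevalonate kinase, gave 124.7 and 127.3, then 158.8, 171.0 and 142.8. Neither overlapped, and HMGCS1 was highest at 24 h. LSS, which closes the lanosterol ring, gave 856.0 and 781.5, then 963.8, 988.4 and 1065.3 (log2 0.29 ± 0.08 SE, adjusted p = 0.5109). DHCR7, which takes the last step to cholesterol, gave 297.7 and 312.5, then 392.8, 420.6 and 408.2 (log2 0.40 ± 0.10 SE, adjusted p = 0.4836). The DHCR7 signal with virus was alike at all 3 hours. INSIG1, which holds SREBP back in the endoplasmic reticulum, gave 540.4 and 527.7, then 591.7, 554.6 and 682.1. PMVK, phosphomevalonate kinase, gave 329.9 and 322.6, then 327.0, 331.4 and 325.9, with no separation, and MYLIP, which degrades the LDL receptor, had a mean log2 of -0.05. In the arrays labelled shMYCN, the step from 24 to 72 h was called lower for 9 of the 26 (background 18.3%) and higher for 1 (background 18.1%), against 0 in either direction with control virus (backgrounds 0.0843% and 0.0421%), where the step rests on 1 array an hour. The arrays labelled shMYCN also lay above the cells without virus on this list, with medians of 0.27 and 0.26 at 24 h, 0.12 and 0.16 at 48 h, and 0.17 and 0.09 at 72 h. These medians use the same arrays without virus as those of the control virus.

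**Figure D4:**
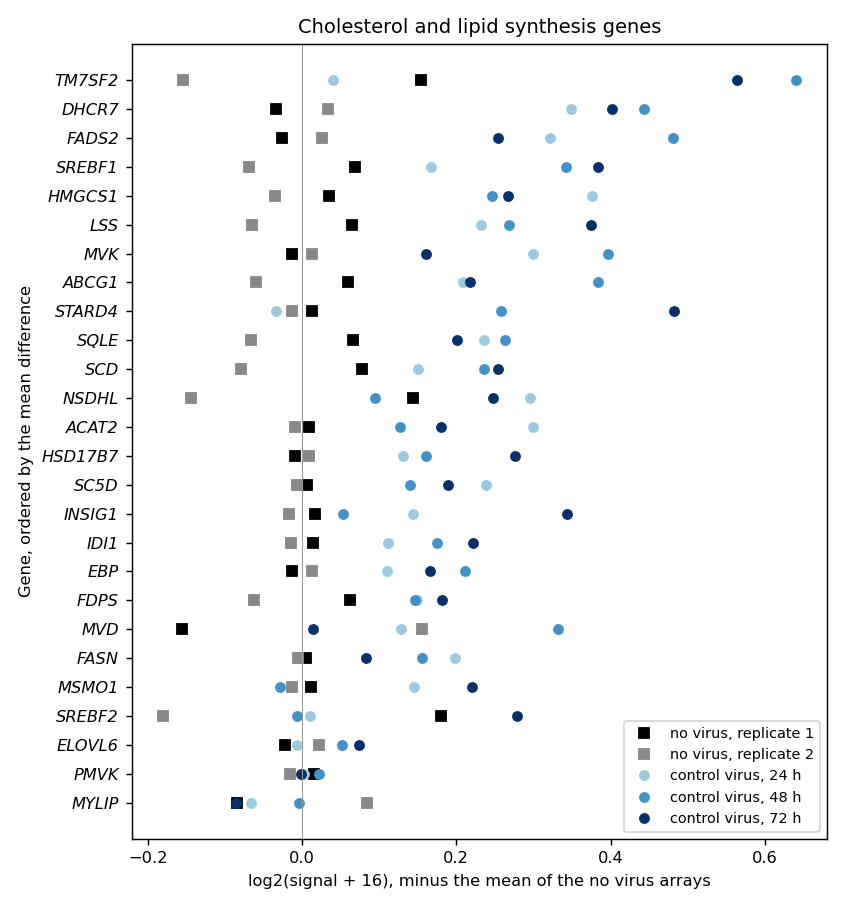
Points give the log2(signal + 16) of the 26 tested genes of cholesterol synthesis and uptake, minus the mean of the 2 arrays without virus (squares, no virus; circles from pale to dark, control virus at 24, 48 and 72 h), ordered by mean difference. For 17 genes every circle lies to the right of both squares; ELOVL6, PMVK and MYLIP at the foot show no such separation.

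The upstream sequence of 3 list members is given as an example of CCAAT boxes, which many but not all members hold. These 3 had the smallest p of the mean difference (limma) among members with an upstream sequence. Any members on 1 chromosome were passed over in this choice, whatever their p. The 250 bases before the annotated start (RefSeq, GRCh38.p14) are printed 5' to 3' on the gene's strand, with CCAAT, or its reverse complement ATTGG, in capitals. DHCR7 is at chr11:71448394-71448643, LSS at chr21:46228775-46229024 and HMGCS1 at chr5:43313413-43313662, all on the minus strand.
DHCR7: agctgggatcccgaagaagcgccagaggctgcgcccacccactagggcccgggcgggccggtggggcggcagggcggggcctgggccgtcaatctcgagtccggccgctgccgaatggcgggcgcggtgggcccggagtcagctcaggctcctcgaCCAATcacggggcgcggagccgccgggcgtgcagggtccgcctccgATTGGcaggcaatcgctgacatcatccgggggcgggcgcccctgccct
LSS: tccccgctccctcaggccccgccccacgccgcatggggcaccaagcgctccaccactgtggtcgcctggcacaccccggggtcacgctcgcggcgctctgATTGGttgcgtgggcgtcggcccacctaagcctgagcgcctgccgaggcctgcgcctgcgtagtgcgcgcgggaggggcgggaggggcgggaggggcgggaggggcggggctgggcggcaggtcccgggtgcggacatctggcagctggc
HMGCS1: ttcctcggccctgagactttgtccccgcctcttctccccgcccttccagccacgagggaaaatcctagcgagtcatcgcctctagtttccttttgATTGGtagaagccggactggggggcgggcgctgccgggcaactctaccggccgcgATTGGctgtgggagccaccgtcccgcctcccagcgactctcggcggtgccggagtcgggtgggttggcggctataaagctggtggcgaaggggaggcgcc
DHCR7 and HMGCS1 hold 2 such boxes each and LSS holds 1. Over the list 22 of 26 tested members had an upstream sequence, and 17 of these (77.3%) held CCAAT on either strand, beside 35.4% of 9698 promoters of tested genes and 33.0% of all 27305 promoters of the same length. The share was 10 of 13 among members above both arrays without virus and 7 of 9 among the others, so the box did not part them. The sterol element TCACNCCAC, which does not overlap CCAAT, was found on either strand in 1 of 22 (4.55%), beside 0.815% of tested genes and 0.875% of all promoters. CCAAT is the box bound by NF-Y, and TCACNCCAC is a form of the element bound by SREBP; a match is not a measured site.

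Other gene lists held single calls. Among immediate early and growth factor response genes, 1 of 25 tested was called higher at 72 h, PHLDA1 (background 0.0843%), and the list's median was 0.00 at 24 h, 0.16 at 48 h and 0.14 at 72 h. DUSP6, a phosphatase that limits ERK, gave 40.7 and 41.4 without virus and 50.4, 67.0 and 81.0 with control virus (72 h adjusted p = 0.07187, limma). EGR1, an early growth response factor, gave 30.6 and 35.2, then 39.9, 49.4 and 68.5 (72 h adjusted p = 0.3013). ETV5, an ERK-responsive factor, gave 95.8 and 90.4, then 83.9, 108.9 and 150.8 (72 h adjusted p = 0.09004). In this list 11 of 25 signals were ordered upward through the 3 hours (background 19.2%) and 3 downward (background 19.5%), KLF4 among the latter with 106.9, 79.7 and 68.5.

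Of 27 tested hypoxia genes STC1 was called higher, as a mean (background 0.0253%) and at 72 h (background 0.0843%), and the list's median at 72 h was 0.13. Its other members include VEGFA, with 122.0 and 126.3, then 123.9, 139.7 and 150.9, and CA12, with 87.3 and 75.4, then 89.0, 115.1 and 115.6. KDM3A, a hypoxia-induced demethylase, gave 525.9 and 515.4, then 462.7, 432.6 and 424.0, below both at every hour. None of the 26 p53 targets passed in any control virus comparison (background at most 0.16%), and GADD45A, a damage-induced gene, gave 584.1 and 577.3, then 668.3, 685.6 and 829.8 (mean adjusted p = 0.3717, limma). Nor did any of 7 inflammatory genes of the NF-kB list, 29 of the integrated stress response, 23 of the unfolded protein response or 24 heat shock genes, and for lists of these sizes 0 calls is near that background.

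Among 55 tested genes of DNA replication none was called with control virus, and the median mean difference was 0.00 in log2. For 55 genes 0 calls is near the background of at most 0.16%. At an unadjusted p under 0.05, 0 of the 55 were higher as a mean (background 2.92%) and 0 lower (background 2.4%). PCNA, the replication clamp, gave 2758.6 and 2687.8 without virus and 2939.9, 3117.1 and 2785.1 with control virus. In the arrays labelled shMYCN 51 of the 55 fell between 24 and 72 h (background 18.3%), and for 31 the 2 steps differed (background 5.82%), all higher with control virus. Among 50 genes of mitosis 0 passed an unadjusted p under 0.05 as a mean in either direction (backgrounds 2.92% and 2.4%). In the arrays labelled shMYCN 27 of the 50 fell from 24 to 72 h (background 18.3%) and 1 rose (background 18.1%).

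The lists of neuronal and noradrenergic genes held members on either side. INSM1 was the call at 72 h among 24 noradrenergic genes (background 0.0843% higher). SLC6A2, the noradrenaline transporter, gave 363.8 and 385.6, then 436.8, 367.4 and 217.5 (72 h adjusted p = 0.09004, limma), and TBX2, a T-box factor, 675.2 and 690.9, then 719.3, 665.6 and 450.7 (adjusted p = 0.05268). For both, the 72 h value was the lowest of the 5. Among 43 neuronal genes DCX, a microtubule-binding protein of young neurons, gave 395.3 and 359.3, then 383.5, 452.4 and 615.1, just outside the threshold at 72 h (adjusted p = 0.05003). ID1, ID2 and ID3, inhibitors of helix-loop-helix factors held in the mesenchymal list, had log2 differences at 72 h of -0.77, -0.48 and -0.90 (adjusted p = 0.07771, 0.07187 and 0.05409).

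The 37 ribosomal protein genes had a median mean difference of 0.14 in log2 as scaled by the authors, with 13 above both arrays without virus (background 11.3%). Under quantile normalization the median was -0.01, so their direction rests on the scaling. Of 35 respiratory chain genes COX7C was called lower at 72 h (background 0.0759%), and 16 signals were ordered downward through the 3 hours (background 19.5%).

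**Figure D5:**
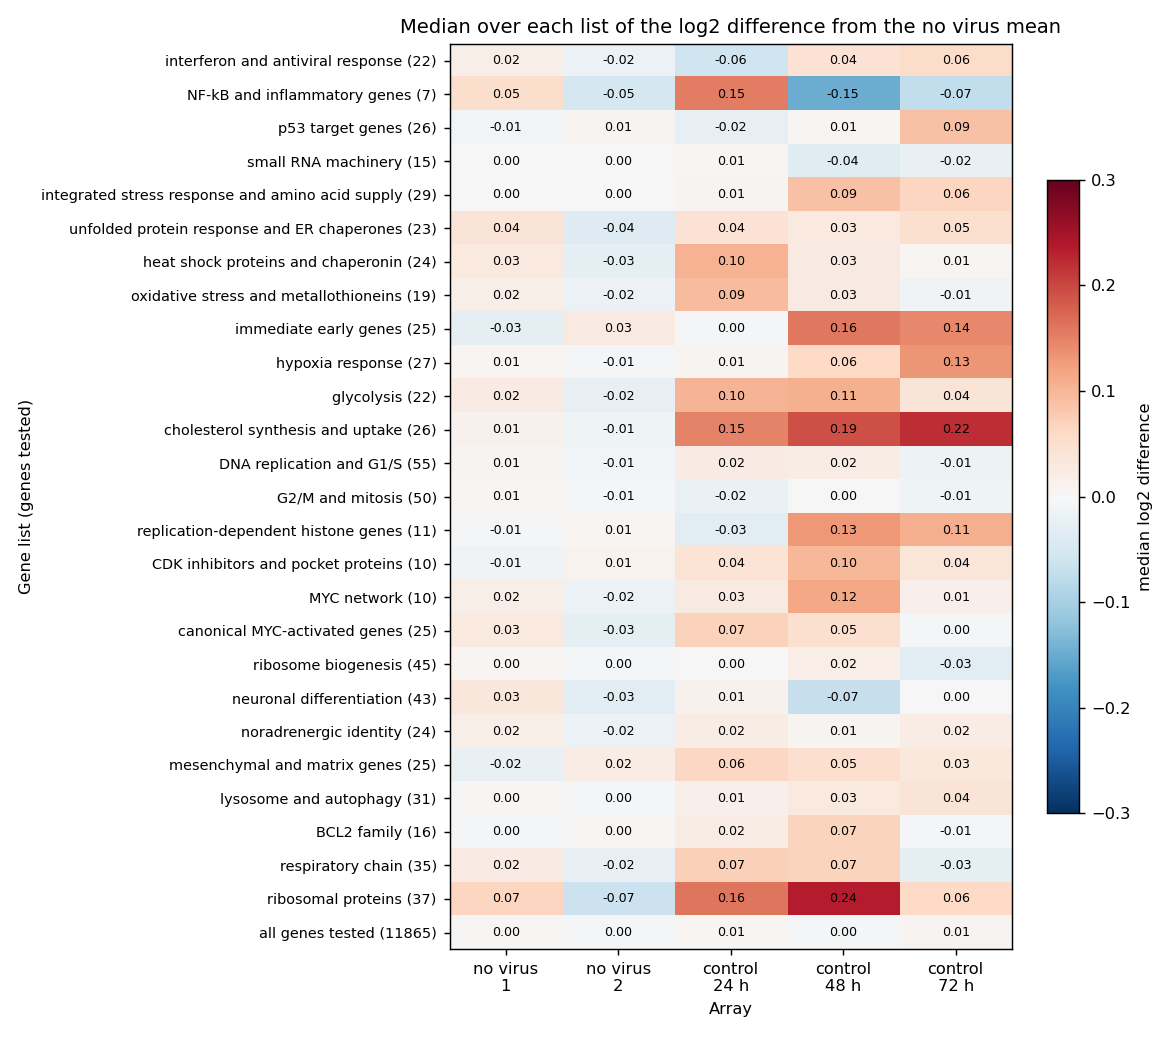
Each cell gives the median over a gene list (tested genes in brackets) of the log2 difference of an array from the mean of the 2 arrays without virus; columns are the 5 arrays. Cholesterol synthesis and uptake is at 0.15, 0.19 and 0.22 in the control virus arrays, and the ribosomal protein row, at 0.16, 0.24 and 0.06, turns below 0 as a mean under quantile normalization.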

How the data were processed

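Per the submitters' processing notes, the deposited signal intensities (1 per probe set and array, biotin-labelled 1-colour arrays) were made with MAS5 and GCOS; versions and background correction are not stated there. The authors scaled each array so that the mean of its middle 96% of 54675 probe sets was 100, as the values show. Of the probe sets, 41097 had 1 gene symbol, 1801 several and 11777 none. Each of 19775 genes was taken by its brightest probe set over the 11 arrays, and the dimmest 40% (mean signal under 14.8) were left out, leaving 11865. log2(signal + 16) was fitted in limma 3.58.1 (R 4.3.3; lmFit, eBayes with trend) as 7 groups over 11 arrays with 4 residual degrees of freedom. p-values are two-sided and Benjamini-Hochberg adjusted. The code was tested on simulated data. The number of arrays limits the precision.

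The comparison, its members and 30 gene lists were chosen with earlier results of these data known. Named were genes past an adjusted p of 0.05, those with the largest folds or smallest p that missed it, and, from each list, up to 4 with the smallest p; interferon, small RNA and MYC network members could all be named. ELOVL6, MVK, MYLIP, PMVK and VEGFA lie outside that rule and were chosen after their values were seen. Alternatives covered offset, scaling, filter, probe set choice, variance model, arrays in the fit, blocks and thresholds.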

Additional observations from a re-analysis of the deposited data

Results flagged for a closer look

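For 1227 genes the step from 24 to 72 h differed between the control virus arrays and the arrays labelled shMYCN by the interaction test (limma, adjusted over 11865 genes). Given here are the 5 with the largest difference in each direction and those also called in the control virus step; values are the control virus step minus the other, in log2. Higher with control virus were SUSD2 (2.372), NT5DC2 (2.261), STC1 (2.067), AK4 (1.909), GABARAP (1.906), GPR155 (1.34) and HSPA12A (0.82). Lower were STMN2 (-3.081), CHODL (-2.592), CT75 (-2.477), DEPP1 (-2.191), MCHR1 (-2.191), SMDT1 (-1.404) and DKK1 (-0.9399).

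STMN2, a stathmin of growing axons, changed by -0.17 with control virus (adjusted p = 0.8958) and rose by 2.91 in the arrays labelled shMYCN, so its difference came from the latter. The same held for NT5DC2, at -0.01 with control virus, CHODL at 0.08 and GABARAP at -0.23, none of them called there. STC1, SUSD2, GPR155, HSPA12A, DKK1 and SMDT1 were called in the control virus series itself. CT75 had steps of -0.76 with control virus and 1.72 in the arrays labelled shMYCN, DEPP1 of -0.73 and 1.46, and MCHR1 of -0.52 and 1.68. AK4 had steps of 0.35 and -1.56. The control virus step of these 4 genes was not called.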

How the results depend on the processing

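Counts of genes are in the order mean of 3 hours, 72 h, and 72 minus 24 h, with main values of 4, 19 and 15. Without the filter they were 0, 8 and 3; without the trend 0, 7 and 4; at an adjusted p of 0.01 0, 8 and 3; with the mean of all probe sets 2, 11 and 8. The mean was 7 under quantile normalization and 0 in the fit of 5 arrays. At 72 h 33 genes passed with an offset of 1 and 31 with the dimmest 60% left out. Median scaling gave 8 as a mean, 42 at 72 h, 2 at 48 h and 1 from 24 to 48 h. The step of the arrays labelled shMYCN (4321) was 2658 at 0.01 and 1736 at 1.5-fold or more; the difference of steps (1227) was 651 without the filter and 370 at 0.01.

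Leaving out 1 array gave 0 to 36 for the mean, 0 to 0 at 24 h, 0 to 12 at 48 h, 6 to 143 at 72 h, 3 to 87 for 72 minus 24 h, 0 to 4 for 48 minus 24 h, 0 to 0 for 72 minus 48 h, 2648 to 5489 for the arrays labelled shMYCN and 557 to 2478 for the difference. The 48 h arrays labelled shMYCN set the highest values.

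With the letters A and B as a replicate block the counts were 3, 22 and 15, and no paired analysis was possible for the control virus arrays themselves because each hour has 1 array. Of 573 values of single genes under alternatives other than leaving out an array, 456 kept direction and call, 116 lost the call and 1 turned: CARHSP1 at 72 h, 0.115 with the mean of all its probe sets (adjusted p = 0.922). Leaving out an array, 309 of 459 kept both, 150 lost the call and 0 turned. Other causes were not tested.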

Other observations

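These values were picked out after the data were seen. HBB, beta-globin, gave 9.5 and 8.2 without virus, 28.8, 19.2 and 27.0 with control virus, and 41.1 to 48.5 in the 6 arrays labelled shMYCN, by its brightest probe set (adjusted p = 0.1244 for the control virus mean, limma). On this probe set the 9 arrays with either virus all lay above the 2 without. The other 3 probe sets of HBB did not share this: one gave 13.0 and 2.2 without virus and 2.3, 0.9 and 2.2 with control virus. GOLGA7B, a palmitoylation cofactor, gave 7.3 and 10.0 without virus, then 31.0, 12.3 and 30.9 with control virus, with 48 h nearest the cells without virus.

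ETV4 lay below both arrays without virus at all 3 hours (19.5 and 20.6, then 16.2, 8.0 and 14.4), while ETV5 of the same family was highest at 72 h. IDI1, a mevalonate pathway isomerase, gave 1173.4 and 1149.5 without virus, then 1255.6, 1313.6 and 1356.9, above both at every hour (adjusted p = 0.9047 for the mean, limma).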
